A study of Mus musculus with 2 samples.

Results

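Microglia and border macrophages are the resident phagocytes of the newborn brain, and 38 genes that mark them, signal to them or make complement were described here in whole midbrain. The members were given as gene symbols and were found through the Ensembl identifier of each row, without its version. All 38 were found among the 43346 Ensembl genes of the tables. They fall into 9 genes of homeostatic microglia, 17 genes of the wider myeloid lineage, the 3 chains of C1q, 4 genes of border macrophages, 3 ligands, and the complement components C3 and C4b.

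Total RNA was sequenced from the midbrain of mice on the day of birth (postnatal day 0), in 2 libraries that the labels call biological replicates from independent isolates. Both came from the strain B6NTac;B6NCrl/Lap, from tissue of pooled males and females labelled healthy. Both also carry the same donor label, which the labels do not explain, so how separate the sources were is not settled by them. Replicate 1 pooled 15 animals, and the pool size of replicate 2 is not stated. The design therefore holds 1 group, and the questions it allows are how high each gene stood and how far the isolates differed. Each pool averages over its animals, so the spread between the libraries is not a spread between animals.

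Microglia descend from yolk sac progenitors, enter the brain before birth and depend on signalling through the CSF1 receptor, which has CSF1 and IL-34 as ligands. In tissue they are recognised by genes such as P2ry12, Tmem119 and Fcrls, while macrophages of the meninges, perivascular spaces and choroid plexus carry Mrc1, Pf4, F13a1 and Cd163. Neurons make fractalkine, the product of Cx3cl1, whose receptor CX3CR1 sits on microglia. Microglia are the main source of C1q in the brain, where the classical complement pathway tags debris and synapses for uptake through C3.

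Replicate 1 held 46685706 estimated counts and replicate 2 held 72779229. The members together took 17434 counts, or 0.0378% of the counts on genes, in replicate 1 and 29887 counts, or 0.0415%, in replicate 2. Levels are given as TPM, the deposited transcript abundance scale that corrects each count for transcript length and makes every library sum to the same total. The median of protein-coding genes at 1 TPM or more in both libraries was 7.96 TPM in replicate 1 and 6.57 TPM in replicate 2. Among genes holding 20 or more counts in sum, the median log2 ratio of TPM, replicate 2 over replicate 1, was -0.28. Differences between libraries are therefore given as log2 ratios of replicate 2 over replicate 1 on counts scaled by trimmed mean of M-values (TMM). All 8 markers of midbrain were at 1 TPM or more in both libraries, among them Th at 5.09 and 4.97 TPM.

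Of the 38 members, 25 were detected, meaning 1 TPM or more in both libraries, and 11 were below 1 TPM in both. Over all Ensembl genes 27.7% were detected, and over protein-coding genes 53.8%. The members' median was 2.06 TPM in replicate 1 and 1.95 TPM in replicate 2. The spread among members was wide, from Cx3cl1 at 17.5 and 19.6 TPM to Cd14 at 0.03 and 0.27 TPM. In this bulk tissue a low level can come from few cells of a type or from little RNA per cell, and the 2 cannot be told apart.

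**Figure D1:**
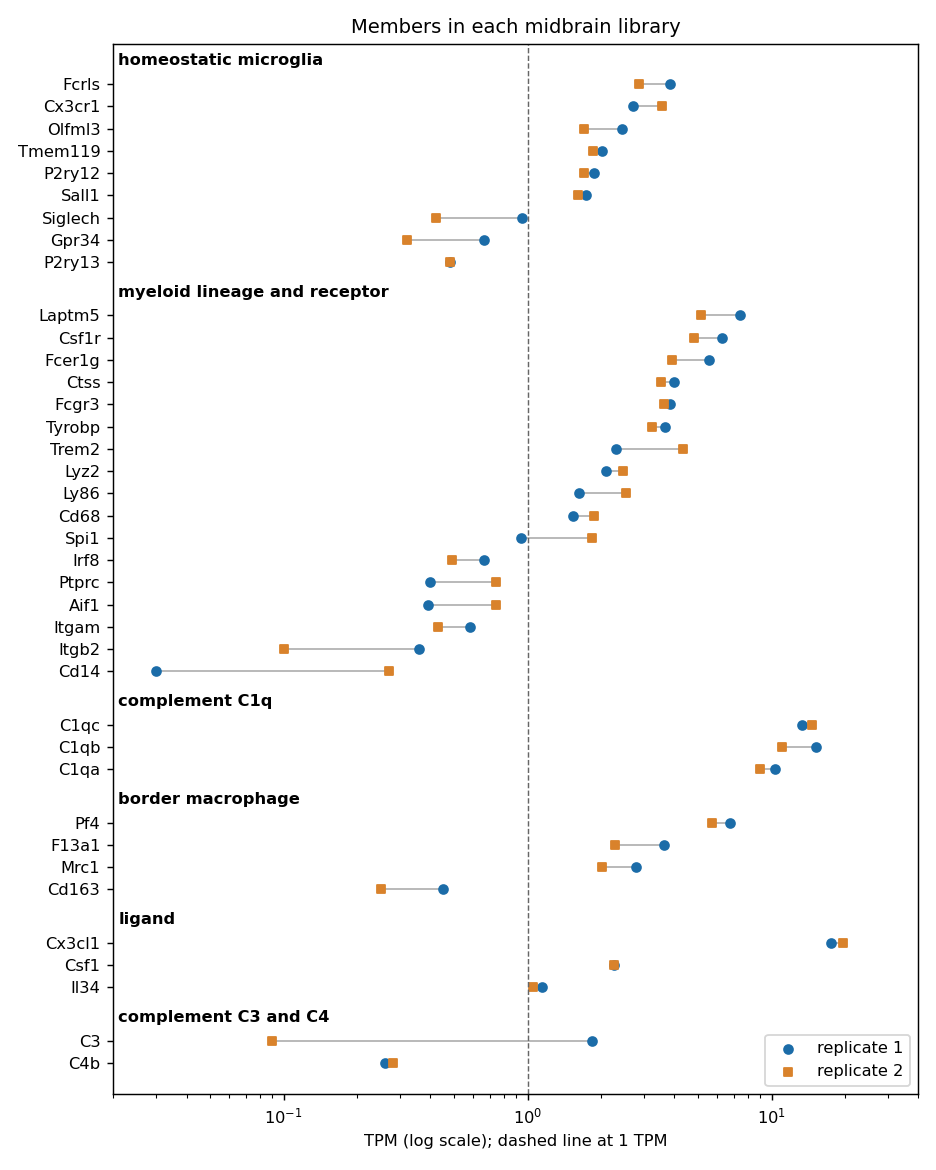
TPM of each of the 38 members on a log axis, grouped by role, with replicate 1 as circles and replicate 2 as squares and a grey line joining them. The C1q chains and Cx3cl1 stand highest, and Cd14 and C3 show the longest lines between the libraries.

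The 3 C1q genes encode the chains that assemble into the recognition molecule of the classical complement pathway. They lie side by side on the minus strand of chromosome 4 (GRCm38), C1qb at chr4:136880129-136886187, C1qc at chr4:136889804-136893065 and C1qa at chr4:136895917-136898803. Gaps of 3616 and 2851 bases separate them. The upstream sequence of C1qc is shown because it holds the extended form of a motif of the ETS factor PU.1, the product of Spi1 and a lineage factor of macrophages. Pf4, the highest of the border macrophage genes, was the other member with this extended form, and Fcer1g, a signalling adaptor of the myeloid list, is shown as a member without either form. The sequences are from RefSeq on GRCm38, read 5′ to 3′ on the strand of the gene, and stop before any exon annotated by GENCODE. Capitals mark the motif GAGGAA or its reverse complement TTCCTC.

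C1qc, chr4:136893066-136893164, minus strand: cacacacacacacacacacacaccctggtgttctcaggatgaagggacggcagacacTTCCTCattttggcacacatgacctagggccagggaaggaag
Pf4, chr5:90772185-90772434, plus strand: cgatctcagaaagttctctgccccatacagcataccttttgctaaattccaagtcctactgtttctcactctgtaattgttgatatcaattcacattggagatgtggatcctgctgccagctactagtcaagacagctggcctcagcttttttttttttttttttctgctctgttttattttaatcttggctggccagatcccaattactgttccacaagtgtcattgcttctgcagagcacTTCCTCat
Fcer1g, chr1:171234366-171234599, minus strand: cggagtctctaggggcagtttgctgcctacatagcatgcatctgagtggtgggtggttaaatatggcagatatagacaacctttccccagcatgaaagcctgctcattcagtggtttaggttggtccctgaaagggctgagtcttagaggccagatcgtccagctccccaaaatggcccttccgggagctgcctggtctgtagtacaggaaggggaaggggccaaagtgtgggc

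Windows of 250 bases before the RefSeq start were found for 28 members. GAGGAA on either strand occurred in a window of 16 of these 28 members (57.1%), against 25.9% of the 27025 genes with a window. The longer form GAGGAAGT, which contains the shorter, occurred in 2 of the 28 (7.14%), C1qc and Pf4, against 2.79% of all genes. The stretch in capitals, which is the shorter form, began 193 bases before the start in C1qc and 8 bases before it in Pf4. The shorter form alone occurred for Trem2, C1qb, Ctss, Laptm5, Mrc1, Fcgr3, Fcrls, F13a1, Cd68, P2ry13, Ptprc, Itgam and Aif1, and for the ligand Cx3cl1. Neither form occurred for Cx3cr1, P2ry12, Fcer1g, Lyz2, Olfml3, Ly86, Sall1, Irf8, Siglech, Cd163, Csf1 and C3. These are letter matches in short windows, and no binding was measured.

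All 3 C1q chains were detected, and they were the highest members apart from Cx3cl1. C1qc (ENSMUSG00000036896.5) stood at 13.4 TPM in replicate 1 and 14.6 TPM in replicate 2, from 934 and 1913 counts. C1qb (ENSMUSG00000036905.8) stood at 15.2 and 11.0 TPM, and C1qa (ENSMUSG00000036887.5) at 10.4 and 8.94 TPM. Thus C1qa was the lowest chain in each library, while the order of C1qb and C1qc was not the same in both. C1qb stood over C1qa by a log2 ratio of 0.42 ± 0.18 (SD, n = 2) and C1qc over C1qa by 0.53 ± 0.24, both under 2-fold. Of detected protein-coding genes, 28% had a higher mean TPM than C1qc. C1qa and C1qb have 1 transcript model each, and C1qc was led by C1qc-201 at 95.5% and 99.8% of its gene.

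Of the 9 homeostatic microglia genes, 6 were detected, and the list's median was 1.88 TPM in replicate 1 and 1.70 TPM in replicate 2. Cx3cr1 (ENSMUSG00000052336.6), the fractalkine receptor, stood at 2.70 and 3.56 TPM from 596 and 1487 counts. Fcrls, an Fc receptor-like molecule used to sort mouse microglia, stood at 3.83 and 2.86 TPM. These were the highest of the list, and each led in 1 library. The purine receptor P2ry12 (ENSMUSG00000036353.9), which senses extracellular nucleotides, stood at 1.88 and 1.70 TPM. Tmem119, a surface protein of microglia, stood at 2.02 and 1.85 TPM, so these standard markers were at nearly the same level as each other in both libraries. Olfml3, a secreted glycoprotein, stood at 2.44 and 1.70 TPM, and Sall1, a transcription factor of microglia that neural cells also use, at 1.73 and 1.61 TPM.

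The other 3 genes of the list were below 1 TPM in both libraries. P2ry13, a second purine receptor, stood at 0.48 TPM in each, from 82 and 152 counts. P2ry12 exceeded it by a log2 ratio of 1.70 ± 0.10 (n = 2), or 3.25-fold, although the genes lie near each other on chromosome 3. Siglech, a sialic acid-binding lectin, stood at 0.95 and 0.42 TPM from 98 and 78 counts. Gpr34, a receptor for lysophosphatidylserine, stood at 0.66 and 0.32 TPM from 82 and 81 counts. Their counts were near equal although replicate 2 was deeper, and the scaled log2 ratios were -0.93 for Siglech and -0.62 for Gpr34. P2ry12 and P2ry13 lie within Med12l and Gpr34 within Cask, each on the opposite strand. The gene model of Cx3cr1 overlaps 3 genes on its own strand and 6 on the other. In all, 14 members overlap another annotated gene, among them Csf1r, which overlaps Hmgxb3 on the opposite strand, and Il34. The libraries were stranded per the labels, but the sources used here do not say whether the counting used strand. The values of overlapping members, and pair ratios that use them, such as those with Cx3cr1, Csf1r or Il34, are uncertain to that extent.

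Csf1r (ENSMUSG00000024621.11), the receptor on which microglia depend, stood at 6.25 and 4.81 TPM from 1769 and 2741 counts. On scaled counts its log2 ratio was 0.03, so the libraries held nearly equal shares of it. The lineage factors were lower. Spi1, which encodes PU.1, stood at 0.94 and 1.84 TPM from 126 and 140 counts, and Irf8, its partner in the myeloid lineage, at 0.66 and 0.49 TPM from 131 and 152 counts. Spi1 was thus higher in replicate 2 by TPM, but its scaled log2 ratio was -0.45 (counting interval -0.81 to -0.09). Its transcript models are described with those of C3.

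The adaptors and receptors of phagocytic signalling were detected in both libraries. Fcer1g, the signalling chain of Fc receptors, stood at 5.56 and 3.90 TPM, and Fcgr3, a receptor for antibody, at 3.85 and 3.63 TPM. Tyrobp, the adaptor known as DAP12, stood at 3.67 and 3.23 TPM, and Trem2, the lipid receptor that signals through it, at 2.31 and 4.33 TPM. Tyrobp was above Trem2 in replicate 1 and below it in replicate 2 on deposited TPM. On coding transcripts alone Trem2 stood at 1.70 and 2.21 TPM, so Tyrobp was above it in both libraries. The log2 ratio of the pair was 0.12 ± 0.75 (n = 2). Tyrobp against Fcer1g gave -0.43 ± 0.23, below Fcer1g in both libraries but within 2-fold.

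Lysosomal and secreted proteins of macrophages were also detected. Laptm5, a lysosomal membrane protein of blood cells, stood at 7.45 and 5.16 TPM from 608 and 1084 counts. Ctss, the protease cathepsin S, stood at 4.0 and 3.53 TPM, and Lyz2, lysozyme, at 2.09 and 2.47 TPM. Cd68, a lysosomal glycoprotein, stood at 1.53 and 1.88 TPM, and Ly86, the MD-1 partner of a Toll-like receptor relative, at 1.62 and 2.52 TPM. Laptm5 and Ctss were lower in replicate 2 by TPM, and Lyz2, Cd68 and Ly86 were higher there. The scaled log2 ratios were 0.23 for Laptm5, 0.10 for Ctss, 0.52 for Lyz2, 0.59 for Cd68 and 0.92 for Ly86.

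Several genes widely used to stain microglia or leukocytes were among the lowest members. Aif1 (ENSMUSG00000024397.10), which encodes IBA1, stood at 0.39 and 0.74 TPM from 15 and 59 counts. Ptprc, which encodes CD45, stood at 0.40 and 0.74 TPM from 97 and 117 counts. Itgam, the CD11b chain of complement receptor 3, stood at 0.58 and 0.43 TPM from 180 and 267 counts. On deposited TPM none of them reached 1 TPM in either library, while P2ry12, Tmem119 and Fcrls did in both. Whether a member passes 1 TPM depends on the scale, however. With TPM rescaled to protein-coding genes, 35 members were detected instead of 25, so this contrast in detection holds for the deposited scale only. Itgb2, the CD18 chain that pairs with Itgam, stood at 0.36 and 0.10 TPM from 60 and 36 counts, and Cd14, the endotoxin co-receptor, at 0.03 and 0.27 TPM from 3 and 49 counts. Cd68 exceeded Cd14 by a log2 ratio of 3.03 ± 0.87 (n = 2). Itgb2 stood below Itgam in both libraries, by -0.56 and -1.41, which is past 2-fold in replicate 2 alone.

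Of the 4 border macrophage genes, 3 were detected, and their median was 3.21 TPM in replicate 1 and 2.15 TPM in replicate 2. Pf4 (ENSMUSG00000029373.6), platelet factor 4, stood at 6.73 and 5.69 TPM from 158 and 247 counts. F13a1, the clotting factor XIII A chain made by tissue macrophages, stood at 3.62 and 2.28 TPM. Mrc1 (ENSMUSG00000026712.3), the mannose receptor CD206, stood at 2.79 and 2.01 TPM. Cd163, the scavenger receptor for haemoglobin, was below 1 TPM in both libraries, at 0.45 and 0.25 TPM from 144 and 146 counts. Thus Mrc1 exceeded Cd163 by a log2 ratio of 2.49 ± 0.14 (n = 2), or 5.63-fold, and was below Pf4 by -1.35 ± 0.15. Platelets and their precursors also hold Pf4 and F13a1.

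Against Mrc1, the microglia markers P2ry12 and Tmem119 stood within 2-fold. P2ry12 over Mrc1 gave log2 ratios of -0.55 and -0.23, and Tmem119 over Mrc1 -0.45 and -0.11. Both of these genes were lower than Mrc1 in each library, by less than 2-fold. Other detected homeostatic genes went both ways. Fcrls, at 3.83 and 2.86 TPM, stood above Mrc1, at 2.79 and 2.01 TPM, in both libraries. Cx3cr1 stood above Mrc1 in replicate 2 alone, and Olfml3 and Sall1 stood below it in both. All 4 border genes had a lower TPM in replicate 2, but on scaled counts their ratios ran from -0.58 to 0.04 and none passed 2-fold. The 8 markers of meningeal fibroblasts were detected in both libraries, with summed levels of 102 and 76.9 TPM. The 7 choroid plexus markers other than Otx2, which midbrain cells also express, summed to 18.1 TPM in replicate 1 and 170 TPM in replicate 2, mostly through Ttr at 14.4 and 163 TPM. The scaled log2 ratio of Ttr was 3.78, and 4 of the 7 were at least 2-fold higher in replicate 2. The part of these tissues in the border macrophage levels was not tested.

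**Figure D2:**
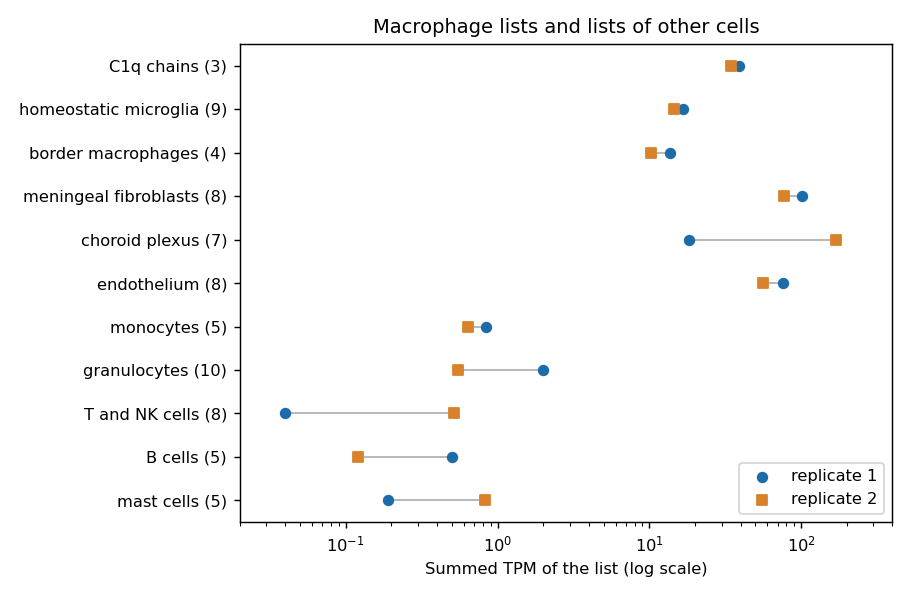
Summed TPM of member lists and of marker lists of other cells, on a log axis, with replicate 1 as circles and replicate 2 as squares. Numbers in brackets count the genes of a list, leaving out Vcan, Lck, Pax5, Kit and Otx2, which brain cells also express. The choroid plexus list differs most between the libraries among lists above 10 TPM, and the lists of blood leukocytes lie under 2 TPM.

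Apart from genes that brain cells also use, markers of other leukocytes were below 1 TPM, except S100a9 at 1.18 TPM in replicate 1. Many were near or at 0, but Plac8 stood at 0.79 and 0.62 TPM and S100a8 at 0.70 and 0.31. Cd79b stood at 0.40 and 0.07 TPM and Cd4 at 0.04 and 0.52. These values overlap those of low members such as Aif1, at 0.39 and 0.74 TPM. The 5 monocyte markers other than Vcan summed to 0.84 and 0.64 TPM, with Ccr2 at 2 and 5 counts and Plac8 at 28 and 41. Of 8 T and NK cell markers other than Lck, 7 held no count in either library (Cd3e, Cd3d, Cd3g, Cd8a, Ncr1, Nkg7 and Gzma). Vpreb1 of the B cell markers held none either, nor did Ly6g and Elane of the granulocyte markers and Ms4a2 of the mast cell markers. An observed 0 allows at most 3 counts by sampling alone, or 0.0643 CPM (counts rescaled to a common library total) in replicate 1 and 0.0412 CPM in replicate 2. Granulocyte markers summed to 1.98 TPM in replicate 1, with S100a9 at 21 counts there and 1 in replicate 2, and mast cell markers other than Kit held 14 and 98 counts, with Cma1 at 1 and 54. The 5 red cell genes summed to 588 and 726 TPM. How much of the members' RNA came from blood was not tested.

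Csf1 and Il34 are the ligands of the CSF1 receptor, and Cx3cl1 is the ligand of CX3CR1. All 3 were detected. Cx3cl1 (ENSMUSG00000031778.8, chr8:94772009-94782427) was the highest of all 38 members, at 17.5 and 19.6 TPM from 4060 and 8419 counts. Csf1 (ENSMUSG00000014599.6) stood at 2.27 TPM in each library, from 526 and 1109 counts, and Il34 (ENSMUSG00000031750.11) at 1.15 and 1.05 TPM from 126 and 189 counts. Csf1 thus stood over Il34 in both libraries, by close to 2-fold. The log2 ratio of Il34 over Csf1 was -0.98 ± 0.09 (n = 2), past 2-fold in replicate 2 alone.

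The balance of ligand and receptor differed between the axes. Cx3cl1 exceeded Cx3cr1 by a log2 ratio of 2.54 ± 0.16 (n = 2), or 5.81-fold. Csf1 stood below Csf1r by -1.24 ± 0.26 and Il34 below it by -2.22 ± 0.18, past 2-fold in both libraries. The fractalkine ligand thus stood above its receptor in tissue RNA, and each CSF1 receptor ligand below its receptor.

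Of 19 gene pairs compared within each library, 8 were at least 2-fold apart the same way in both. These were Cx3cl1 over Cx3cr1, P2ry12 over P2ry13, Mrc1 over Cd163, Cd68 over Cd14 and C1qa over C3, and Il34 and Csf1 below Csf1r and Mrc1 below Pf4. All pair ratios are on TPM + 0.1, which understates the ratio of low genes. With 1 TPM added instead, P2ry12 over P2ry13 came to 0.91 and Csf1 over Csf1r to -0.99, and neither was past 2-fold in both libraries. On posterior mean TPM, Csf1 over Csf1r came to -1.14 and was not past 2-fold in both either.

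**Figure D3:**
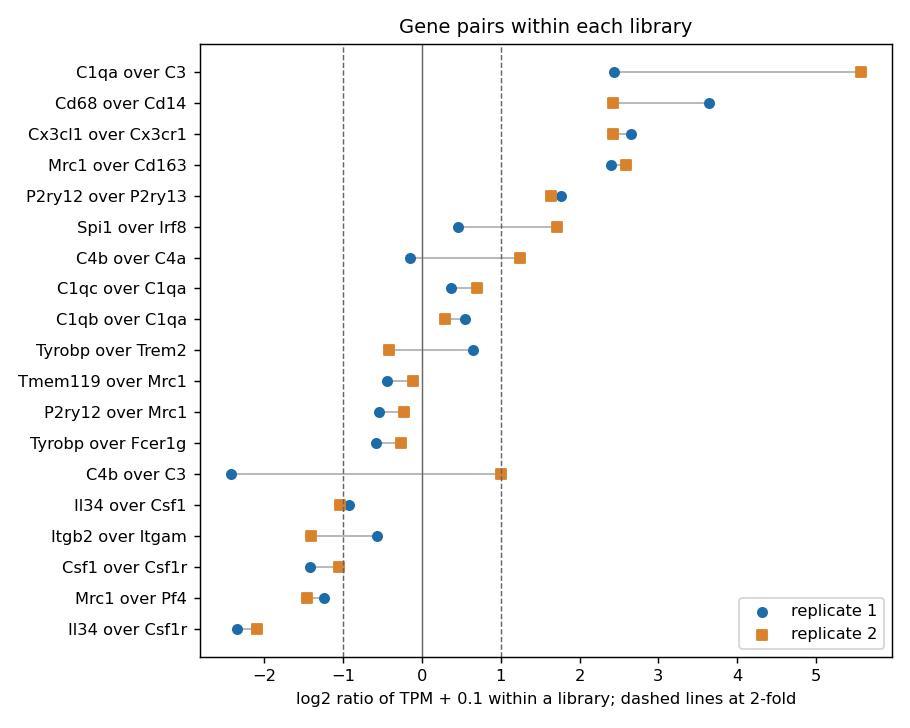
Log2 ratios of TPM + 0.1 of 19 gene pairs within each library, with replicate 1 as circles and replicate 2 as squares, ordered by their mean. The pairs with C3 have the widest gaps between libraries, while the 3 ligand-receptor pairs stay on the same side of 2-fold in both.

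The complement components downstream of C1q were low. C3 (ENSMUSG00000024164.11), the central component of all pathways, stood at 1.83 TPM in replicate 1 and 0.09 TPM in replicate 2, from 109 and 53 counts. C4b (ENSMUSG00000073418.4) stood at 0.26 and 0.28 TPM from 99.9 and 204 counts. C1qa exceeded C3 by log2 ratios of 2.44 and 5.57. On deposited TPM neither C3 nor C4b was detected in both libraries, while all 3 chains of C1q were. C4b has a near-identical neighbour, C4a, which lies 65209 bases away on chromosome 17 and stood at 0.30 and 0.06 TPM. Estimated counts divide reads that fit both, but those of C4b (99.93 and 204) and C4a (27.07 and 35) were whole or nearly so. How many reads fit both genes is not given, so the C4b level keeps some uncertainty. On scaled counts the log2 ratio of C4a was -0.23, a smaller fall than that of its TPM. The C4b over C4a ratio of 0.55 ± 0.99 (n = 2) is therefore uncertain.

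Between the libraries, 4 of the 38 members differed by at least 2-fold on scaled counts. Aif1 and Cd14 were higher in replicate 2, where 7.72% of all 17574 genes holding 20 or more counts in sum were higher by as much. C3 and Itgb2 were lower in replicate 2, as were 5.83% of all genes. The members' median absolute log2 ratio was 0.35, against 0.27 over all genes tested. With 1 library on each side there is no test, and intervals here cover counting error only. The reads carry no molecular identifiers, so they may count a molecule more than once.

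The counts behind these 4 genes were few. Aif1 had a log2 ratio of 1.34 (interval 0.54 to 2.30) from 15 and 59 counts. Cd14 had 3.22 (1.80 to 5.76), and its count of 3 in replicate 1 allows 0.619 to 8.77. C3 had -1.63 (-2.14 to -1.16), and Itgb2 had -1.33 (-1.98 to -0.72). The calls were the same with DESeq2 size factors and with scaling on the spike-ins. On unscaled TPM, Aif1 came to 0.78 and was not called, Siglech was called as lower, Cd14 came to 1.51 and C3 to -3.35. Among all members holding 100 or more counts in sum, only C3 passed 2-fold, and the share of all genes at that count is not given here.

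**Figure D4:**
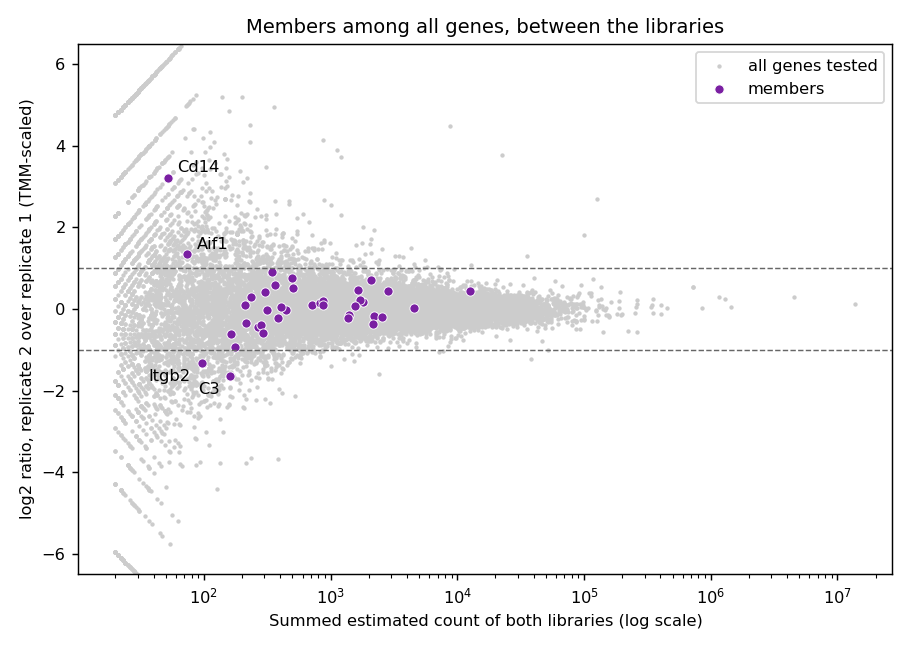
TMM-scaled log2 ratio of replicate 2 over replicate 1 against the summed estimated count on a log axis, with genes tested in grey and the 38 members in purple. Dashed lines mark 2-fold, 69 genes lie outside the plotted range, and the 4 labelled members past 2-fold all have low counts.

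Some TPM values rested on short transcript models. C3-203, a model of 554 bases, took 34.3 of the 109 counts of C3 in replicate 1 but 89.0% of its TPM there. If all counts of C3 lay on its longest coding transcript, its level would be 0.29 TPM in replicate 1 and 0.08 TPM in replicate 2. C3 would then be below 1 TPM in both libraries. The same holds for Spi1, where Spi1-204, of 544 bases, took 56.1 of 140 counts and 81.6% of TPM in replicate 2 and nothing in replicate 1. On its longest coding transcript Spi1 would stand at 0.94 and 0.56 TPM, the order of its scaled counts. Laptm5-208, a non-coding model of 341 bases, took 18.2 of 608 counts and 51.9% of TPM in replicate 1, and with all counts on its longest coding transcript Laptm5 would stand at 3.42 and 3.29 TPM.

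In all, 5 members stood over 1.5-fold above this single-model level in a library, namely C3, Spi1, Laptm5, Ptprc and Siglech. For Ptprc the single-model level was 0.26 and 0.17 TPM, since Ptprc-213, of 702 bases, carried 79.1% of its TPM in replicate 2. The C1q chains, Tyrobp, Pf4 and Mrc1 moved little. For C1qa, C1qb, Tyrobp and Pf4, which have 1 transcript model each, both levels had to agree. In all, 9 members have 1 transcript model. The levels of C1qc and Mrc1, which have further models, rest almost wholly on 1 coding model each, with Mrc1-201 at 98.9% and 99.0% of its gene.

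**Figure D5:**
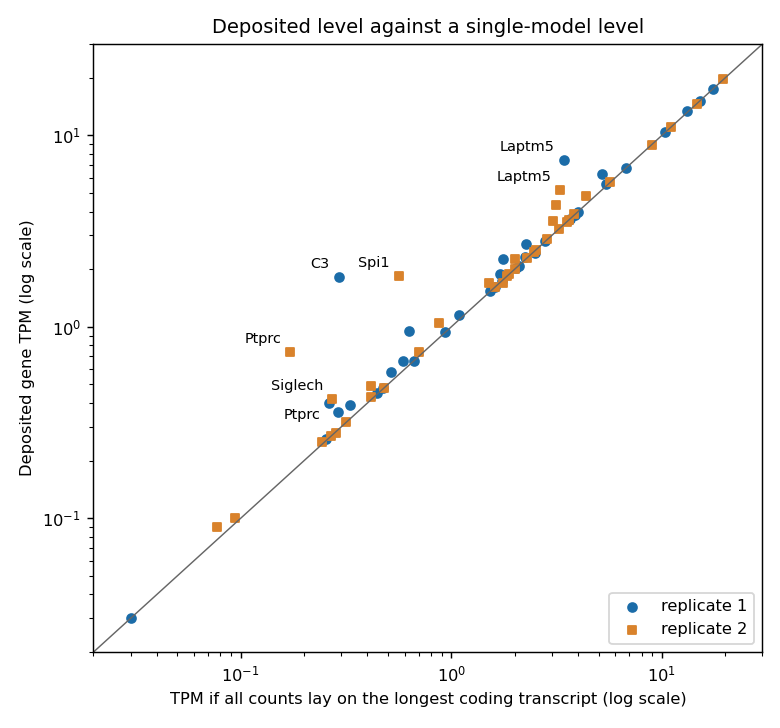
Deposited gene TPM against the TPM expected if all counts lay on the longest coding transcript, both on log axes, for the 38 members in replicate 1 (circles) and replicate 2 (squares). Most points lie on the diagonal of equality, where members with 1 transcript model must lie, and the labelled points are the 5 members over 1.5-fold above it.

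Of the 25 detected members, 21 had the same transcript at 50% or more of the gene in both libraries. Detected members with 1 transcript model could not do otherwise and are among the 21. Il34-201 carried 94.0% and 84.5% of Il34, P2ry12-202 78.8% and 100% of P2ry12 and Cx3cr1-202 100% and 87.8% of Cx3cr1. Trem2-201 carried 65.9% and 51.0% of Trem2, and Trem2-204, a non-coding model of 526 bases, 23.2% and 47.8%. With all counts on the longest coding transcript, Trem2 would stand at 2.24 and 3.14 TPM, so it stayed higher in replicate 2. Csf1-201, of 4176 bases, led Csf1 in both libraries at 49.6% and 83.6%, followed in replicate 1 by Csf1-203 at 31.5% and Csf1-202 at 18.9%. C4b-201 carried all of C4b.

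For 11 members the leading transcript differed between the libraries. Csf1r was led by Csf1r-201 at 87.7% in replicate 1 and by Csf1r-202 at 51.6% in replicate 2, both of them coding. F13a1 was led by F13a1-202 at 57.0% and then by F13a1-201 at 93.1%, and Gpr34 by Gpr34-202 at 92.6% and then by Gpr34-201 at 90.3%. These 3 genes stayed within 1.5-fold of their single-model level in both libraries. Siglech was led by Siglech-201 at 57.9% and then Siglech-205 at 48.9%, and Itgam by Itgam-201 at 47.9% and then Itgam-203 at 75.9%. Spi1, Ptprc, C3 and Laptm5, given above, also switched. Itgb2 was led in replicate 1 by Itgb2-205 (81.9%), annotated for nonsense-mediated decay, and in replicate 2 by the coding Itgb2-201 (66.9%). Aif1 was led in replicate 1 by Aif1-207 (88.1%), annotated with a retained intron, and in replicate 2 by the coding Aif1-203 (100%). All of these genes but Csf1r, F13a1 and Laptm5 held 15 to 267 counts per library, so the assignment to a model rests on few reads.

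Further genes of the same cells and pathways, which are not members, give the setting. Of 18 other microglia genes 9 were detected, among them Sparc at 47.0 and 48.6 TPM, Tgfbr1 at 9.89 and 5.63 and Rnase4 at 5.69 and 5.36. Sparc and the TGF-beta receptor Tgfbr1 are also made by other brain cells. Of 14 other border macrophage genes 4 were detected, Colec12 at 7.23 and 5.31 TPM, Maf at 5.66 and 6.68, Stab1 at 6.70 and 4.66 and Lyve1 at 2.27 and 1.52. On coding transcripts alone Stab1 stood at 3.16 and 2.04 TPM. Colec12 stood at 0.0 TPM in both libraries on that measure, with no model matched as coding. Of the 14 genes 9 were below 1 TPM in both libraries. Of 18 genes tested in the first list, 3 were at least 2-fold higher in replicate 2 and none lower. Of 13 tested in the second, 1 was higher and 2 lower. Over all genes tested, 7.72% were higher and 5.83% lower by as much.

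Of 14 genes linked to phagocytic microglia around birth 9 were detected, led by Apoe at 340 and 474 TPM, Fabp5 at 81.0 and 64.6, Ctsb at 35.6 and 34.1 and Ctsl at 20.7 and 16.9, all shared with other cells. Of 12 genes tested in this list, 1 was at least 2-fold higher in replicate 2 and 1 lower, against 7.72% and 5.83% of all genes. Among 12 inflammatory genes none was detected, and Il1b, Tnf and Ccl4 held no count in either library. The highest mean TPM of these were those of Cybb at 2.31 and 0.03 TPM from 72 and 22 counts, and of Ccl3 at 0.16 and 0.97 TPM from 6 and 67 counts. With all counts on its longest coding transcript Cybb would stand at 0.21 and 0.03 TPM. Of 6 inflammatory genes tested on scaled counts, 1 (Ccl3) was at least 2-fold higher in replicate 2, against 7.72% of all genes. In the other direction, 2 were lower (Cybb, and Cd86 from 111 and 67 counts), against 5.83%.

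Of 19 other complement genes and regulators 6 were detected, among them Clu at 34.5 and 38.5 TPM, Susd4 at 19.1 and 14.8 and Cr1l at 12.9 and 11.0. These 3 are regulators or inhibitors of complement, while C6, of the terminal pathway, held no count. Of 15 genes tested in this list, 1 was at least 2-fold higher in replicate 2 and 1 lower, against 7.72% and 5.83% of all genes. Of 13 genes of neuron-to-microglia and TGF-beta signalling 11 were detected, led by Cd200 at 72.3 and 49.8 TPM, Mfge8 at 49.6 and 50, Sirpa at 26.9 and 20.1 and Gas6 at 16.7 and 17.6. Cd200, a neuronal surface protein that restrains myeloid cells, stood above Cx3cl1 in both libraries. Of 13 genes tested in this list, 1 was at least 2-fold lower in replicate 2 and none higher, against 5.83% and 7.72% of all genes.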

How the data were processed

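The authors deposited, for each library, gene and transcript tables quantified on assembly mm10 with GENCODE release 4, per the notes deposited with the samples. Which aligner and which quantification program were run is not given in the sources used here. In the authors' deposited tables, estimated counts divide reads that fit several genes. The deposited TPM values correct counts for effective length and have a common library total. The percent of a gene carried by each transcript was used as deposited, and posterior mean TPM values by the authors served as an alternative. The labels give stranded pairs of 101 bases from RNA longer than 200 nucleotides, depleted of rRNA.

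Symbols and coordinates came from GENCODE release 21 (GRCm38), which matched 42462 of 43346 identifiers. Counts were rounded and scaled with edgeR 4.0.16 (TMM), or with DESeq2 1.42.0 and 24 spike-ins as alternatives, with a prior count of 0.5. A gene was called between libraries at 2-fold or more, given a summed count of at least 20, with no test. Counting intervals are exact, at 95%. The scaling was tested on simulated data. The files do not hold 1 library in duplicate (chi-square per degree of freedom 51.4 over 18547 genes). Pairs were called at 2-fold or more in both libraries on TPM + 0.1. Promoter windows came from RefSeq on GRCm38.

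The rule for named genes took all 38 members, the 4 highest genes of each further list, the 3 highest and those at 0 of each marker list, both genes of each pair and selected transcripts. Some genes under this rule are not reported here. Ccr2 and Th were named after their values were seen. Members and lists were chosen with earlier results of these data known.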

Additional observations from a re-analysis of the deposited data

How the results depend on the processing

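The number of members detected, 25, ranged from 18 (2 TPM) to 35 (TPM rescaled to protein-coding genes), was 26 at 0.5 TPM and with posterior mean TPM, and was 26 without either replicate. The 4 members called between the libraries came to 10 at 1.5-fold and to 1 at a summed count of at least 100. The share of all genes at these settings is not given here, so neither number sets the members against all genes. The 8 gene pairs called ranged from 9 to 13 when either replicate was left out, since a pair then had to pass in 1 library alone. The level of 7 of 38 members moved by more than the spread between libraries with posterior mean TPM and of 7 with all counts on the longest coding transcript, an alternative chosen after seeing the data. The spread of 2 libraries is a rough measure. On the longest coding transcript P2ry13, with an SD of 0, counted as moved from a mean of 0.48 to 0.477 TPM. C3, with an SD of 1.23, went from 0.96 to 0.185 TPM and did not count. No called value changed its direction under the alternatives run. Of pairs not called, C4b over C3 (-0.71) came to 1.00 without replicate 1 and 0.48 on the longest coding transcript, C4b over C4a (0.55) to -0.32 on posterior mean TPM and -0.15 without replicate 2, and Tyrobp over Trem2 (0.12) to -0.41 without replicate 1. No paired analysis was possible because there is 1 group. The 11 members with under 100 counts in a library are the least certain.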
